A study of Taeniopygia guttata with 23 samples.

Results

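Trimethylation of lysine 4 on histone H3 (H3K4me3) in the auditory forebrain of young male zebra finches (Taeniopygia guttata) was compared between posthatch day 32 and posthatch day 67. The members were the 5 H3K4me3 libraries of a series of 23 samples, of which 20 are libraries with a list of enriched intervals (islands). One library, P32, came from day 32 males that had stayed in the flight aviary where they hatched, with an experience labelled Normal. The other 4 came from day 67 males. The 2 Tutored libraries were of birds housed from day 21 with an adult of each sex, and the 2 Isolate libraries were of birds housed from day 21 with adult females only. No bird carried an allele or received an agent, all were male, and the sources used here do not say how many birds went into a library. Replicates may therefore be technical, and p-values reflect the spread among these libraries alone.

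The auditory forebrain holds the regions in which a songbird processes and remembers heard song, and juvenile males of this species form their memory of a tutor's song during the weeks compared here. H3K4me3 is written by COMPASS-type methyltransferases around transcription start sites, most of all at promoters rich in CpG. A narrow interval of the mark sits at most active or poised promoters, and a broad one often covers genes that are strongly and continuously transcribed in a cell type. H3K27me3, the mark of Polycomb repressors, can lie on the same promoters when they are held silent, H3K9me3 is found on heterochromatin, and RNA polymerase II (Pol II) is the enzyme that transcribes genes.

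P32 is a single library with an input sample of its own, whereas the day 67 libraries of one replicate number share an input label, so age cannot be told apart from the making of that library. Nor can it be told apart from rearing, since all day 67 birds were rehoused from day 21 and the P32 birds were not. An exact permutation test of 1 library against 4 cannot go below p = 0.2, and P32 is therefore set beside the range of the 4 day 67 libraries. Reads in islands numbered 5180553 in P32, 4291767 (Tutored) and 4286003 (Isolate) in replicate 1 and 10840161 (Tutored) and 11303863 (Isolate) in replicate 2. The total depth is unknown, and a list holds only reads that fell in its islands. Genes could not be placed on the islands, whose genome build was not given in the sources used here. Regions are therefore named by chromosome and position, and the tissue could not be checked against marker genes.

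The P32 list covered the least of the genome and held the fewest long islands. Islands covered 35.1 Mb in P32, 49.1 Mb in Tutored replicate 1, 38.9 Mb in Tutored replicate 2, 47.5 Mb in Isolate replicate 1 and 40.5 Mb in Isolate replicate 2. P32 thus lay below all 4 day 67 libraries, which themselves split by replicate number. Islands of 8 kb or more, the broad domains of the mark, numbered 133 in P32 against 514 and 255 in Tutored replicates 1 and 2 and 485 and 280 in Isolate replicates 1 and 2. In contrast, the number of islands was 17575 in P32 and 17061 to 19502 at day 67, so P32 lay inside that range. The raw density of reads, 148 reads per kb of island in P32, lay between replicate 1 (87.5 and 90.2) and replicate 2 (279 in both groups). It was not scaled for the reads in islands, which in P32 also lay between those of replicate 1 and replicate 2. The raw density thus does not place P32 apart from depth.

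**Figure D1:**
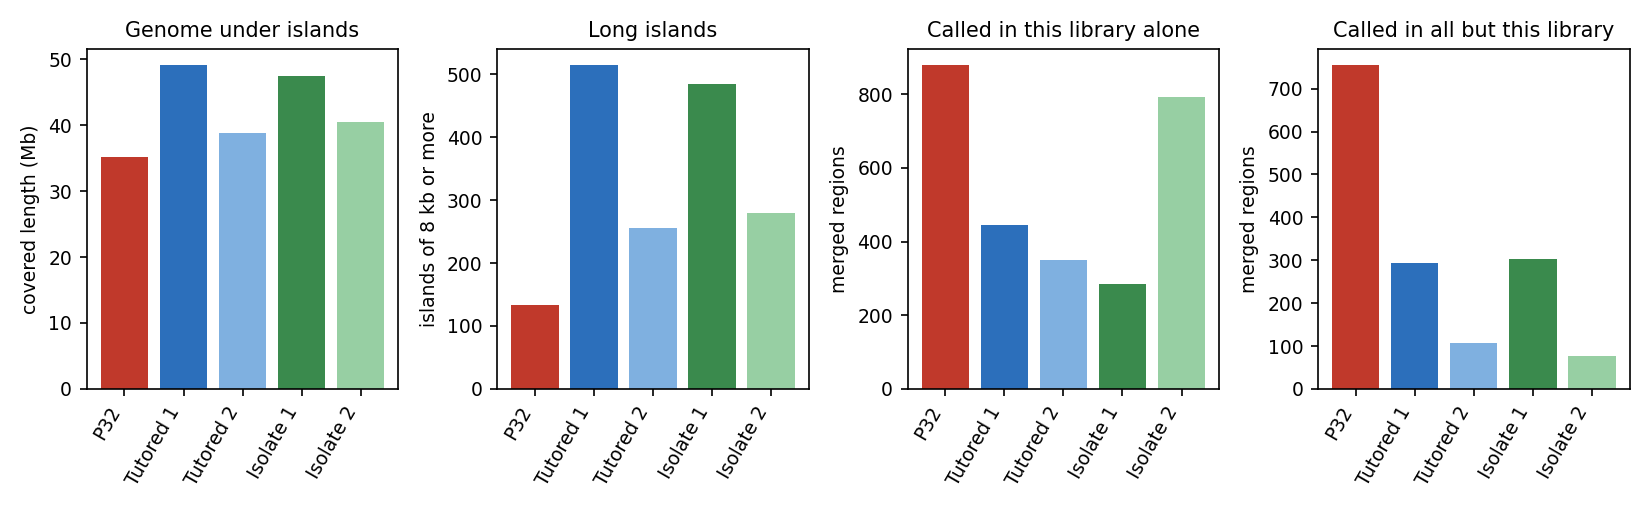
Bars give, for each of the 5 H3K4me3 libraries, the covered length in Mb, the number of islands of 8 kb or more, and the merged regions called in that library alone or in every library but that one. P32 is lowest for cover (35.1 Mb) and long islands (133), and highest for both kinds of disagreement (878 and 754 regions).

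Most H3K4me3 regions were present at both ages. Islands of the 5 libraries that overlapped or touched were merged into 20953 regions, and an overlap of at least 1 bp with an island of a library made it called there. P32 had a call in 94.7% of the 14267 regions that all 4 day 67 libraries called, which left 13513 regions called in all 5. Regions of 3 day 67 libraries were called in P32 in 58.0% of cases, and those of 1 day 67 library in 16.2%. The share thus followed how many day 67 libraries had the region.

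P32 alone called 878 regions (4.19% of merged regions), and 754 (3.6%) were called in all 4 day 67 libraries and not in P32. Taken in turn as the odd library, each day 67 library had 284 (Isolate replicate 1) to 792 (Isolate replicate 2) regions to itself. Between 76 (Isolate replicate 2) and 304 (Isolate replicate 1) regions were missing from a day 67 library and present in the other 4. P32 had the highest count of both kinds, by a narrow margin over Isolate replicate 2 for regions of its own and by a wide one for missing regions. A day 67 library always has its same-numbered partner among the other 4, however, and P32 has no such partner, so the counts are not on an equal footing. Taken as pairs, the replicate 2 libraries shared 973 regions that were called in no other library, and the replicate 1 libraries 292.

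The 2 kinds of region differed in size. P32-only regions had a median of 0.8 kb and 27 reads, where the weakest P32 island held 13, and 564 of the 878 were under 1 kb. Regions absent from P32 had a median of 2.4 kb, and 261 of the 754 were at least 3 kb long. Of these 754, 303 held at least 50 reads in every day 67 library. Regions of a single day 67 library were small as well, at a median of 1.2 kb in both replicate 1 libraries and 0.8 kb in both replicate 2 libraries. Their median reads were 28 and 27 in replicate 1 and 51 and 54 in replicate 2 (Tutored and Isolate). Regions missing only from Tutored or Isolate replicate 2 had a median of 1.8 kb, and those missing only from replicate 1 had 1 kb (Tutored) and 1.2 kb (Isolate).

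Among regions absent from P32, those with the highest level in their weakest day 67 library were strong promoter-sized or broad intervals. Levels are given as counts scaled to 1000000 reads in the regions called in all 5 libraries (CPM). The first lay on chromosome 4 at 35403401 to 35411200 (7.8 kb), with 79.96 and 196 CPM in Tutored replicates 1 and 2 and 80.8 and 197 in Isolate replicates 1 and 2. Both replicate 2 libraries were high there and both replicate 1 libraries low, yet the lowest still had 332 reads against no P32 island. On chromosome 15 at 2653001 to 2659600 (6.6 kb) the levels were 73.7 and 70.0 in Tutored and 69.5 and 89.4 in Isolate. On chromosome 6 at 15001001 to 15004800 (3.8 kb) they were 63.1 and 71.5 in Tutored and 64.7 and 78.2 in Isolate.

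At these latter regions the day 67 libraries lay close together. The 2 others were on chromosome 1A at 38183401 to 38189600 (59.0 to 82.4 CPM) and on chromosome 20 at 12035001 to 12040000 (55.9 to 127). None of the 5 carried H3K27me3 or H3K9me3 in any library. All but the one on chromosome 20 had a Pol II island in P32, whereas at day 67 Pol II was called in 0, 3, 0, 1 and 0 of the 4 libraries in the order given. The 5 do not stand for the whole set in this. Of all 754 absent regions, 18.4% (139) had Pol II in P32 and 11.5% to 26.9% in the day 67 libraries. In regions called in all 5 the shares were 26.4% and 24.1% to 67.7%. P32 H3K27me3 lay at 18.3% of the 754 and P32 H3K9me3 at 8.09%.

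The P32-only regions with the most reads were of another kind. A 1.0 kb region on chromosome 5 at 3216601 to 3217600 held 235 P32 reads, 119.6 kb away from the next P32 region. The next were on Z at 39657401 to 39659600 (137 reads), chromosome 20 at 15217601 to 15220000 (134), chromosome 10 at 2122001 to 2126800 (131) and chromosome 1A at 26029601 to 26030400 (128). All 5 also carried a P32 H3K9me3 island, and 4 carried P32 H3K27me3. H3K9me3 was present in all 4 day 67 libraries at 3 of them, on chromosomes 5, Z and 1A. H3K27me3 was present in all 4 day 67 libraries on chromosomes 5 and Z and in 1 of them on chromosome 20.

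That overlap held across the P32-only regions. H3K9me3 of P32 was called at 78.7% of them (691 of 878), against 30.8% of the regions called in all 5. H3K9me3 of the day 67 libraries was called at 19.8% to 25.7% of P32-only regions, against 3.95% to 5.82% of those in all 5. P32 H3K27me3 lay at 61.5% and day 67 H3K27me3 at 47.6% to 53.3%, against 27.8% and 18.8% to 21.6%. Of regions called in 1 day 67 library alone, 10.5% to 30.6% carried P32 H3K9me3. With all regions that overlap P32 H3K9me3 left out, an alternative chosen after seeing the data, 187 P32-only regions and 693 absent ones were counted. H3K9me3 and H3K27me3 thus went with the P32-only calls, and their part in the result was not tested. The P32 H3K9me3 list was also far more frequent than the day 67 lists at regions called in all 5.

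In shared regions, P32 islands were often shorter than all 4 day 67 islands and seldom longer. The covered length of P32 lay below the day 67 range in 4641 of the 13513 regions (34.3%) and above it in 644 (4.77%). Set against the other 4 libraries in the same way, Tutored replicate 2 was shortest in 16.3% and Isolate replicate 2 in 14.3%, and the replicate 1 libraries in 2.37% and 2.29%. These shares are not on an equal footing, since each day 67 library has its same-numbered partner among the other 4 and P32 has none. A library that ties with its partner, or is longer than it, does not count as shortest. Log2 lengths of the replicate 2 libraries correlated at r = 0.94 across regions, and those of P32 with the day 67 libraries at 0.78 to 0.86. The mean cover of a region was 2.41 kb in P32, 2.54 and 2.59 kb in replicate 2 and 3.28 and 3.23 kb in replicate 1 (Tutored and Isolate). Against replicate 1 alone P32 lay below in 9059 and above in 883 of 14119 regions, and against replicate 2 alone below in 5536 and above in 4611 of 14869. Without Tutored replicate 1 or Isolate replicate 1 the count above became 1228 or 1173.

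The share of regions in which P32 was shortest was larger in longer regions. P32 was the shortest of the 5 in 10.3% of regions under 1 kb, 23.4% of those of 1 to 3 kb, 42.9% of those of 3 to 8 kb and 56.3% of the 946 regions of at least 8 kb. The share in which it was the longest was 3.73% to 6.24% in all 4 classes. A tie counted as neither shortest nor longest. Lengths move in steps of 200 bp, so ties weigh more in short regions and can account for part of the rise. Long day 67 islands themselves lengthen a merged region, so classes were also made from the mean cover of the 5 libraries, a choice made after seeing the data. That mean includes the 4 day 67 lengths, so these classes still depend on the lengths that P32 is compared with. The shares were then 13.7%, 27.7%, 50.4% and 61.0%, and the median log2 difference in cover between P32 and the day 67 mean was -0.06, -0.15, -0.29 and -0.37. In the same classes Tutored replicate 2 was shortest in 6.88%, 17.0%, 18.4% and 18.9% and Isolate replicate 2 in 7.28%, 15.4%, 15.3% and 14.0%. Each of these has its partner among the other 4, which P32 lacks, here and in the counts of island ends that follow. In the 11036 regions with 1 island in every library, the P32 island ended inside all 4 day 67 islands on both sides in 702, on 1 side in 3417 and on neither in 6917. For Tutored and Isolate replicate 2 the counts were 111 and 94 on both sides and 1966 and 1739 on 1 side, so a shorter extent on 1 side was the more frequent form in these libraries too. Where a P32 island ended inside, it did so by a median of 400 bp from the nearest other edge, or 2 of the 200 bp windows in which islands were called.

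**Figure D2:**
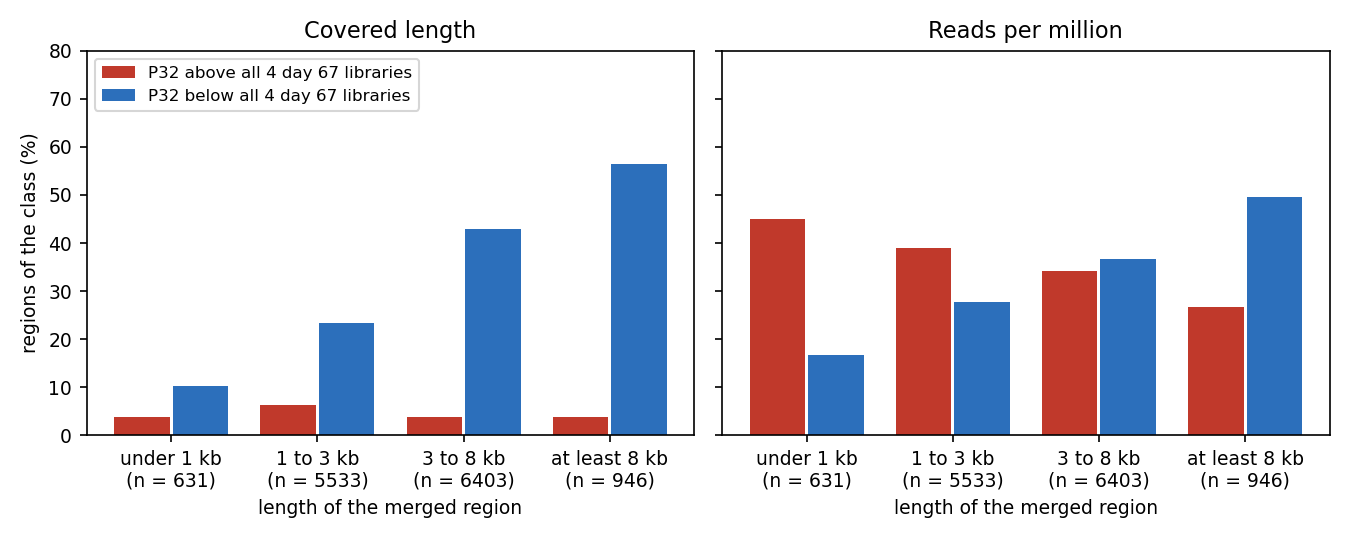
Bars give the percentage of regions called in all 5 libraries in which P32 lay above (red) or below (blue) all 4 day 67 libraries, for covered length (left) and CPM (right), by length of the merged region. The share below rises with length, to 56.3% for covered length and 49.6% for reads in regions of at least 8 kb.

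Among regions with at least 50 reads on average, the widest gaps in length left P32 with a small piece of a broad interval. On chromosome 1 at 14112001 to 14118400 P32 covered 0.4 kb, the Tutored libraries 6.0 and 6.2 kb and the Isolate libraries 5.8 and 6.2 kb. On chromosome 17 at 8272601 to 8287200, a region of 14.6 kb, the cover was 0.4 kb in P32, 14.6 and 5.8 kb in Tutored and 11.2 and 8.4 kb in Isolate. Day 67 cover was even in the former and uneven in the latter, and P32 was far below in both. The 3 others lay on chromosome 5 at 12694001 to 12697600, chromosome 2 at 52161201 to 52168400 and Z at 43478601 to 43486400, with 0.2, 0.6 and 0.6 kb in P32. Their shortest day 67 cover was 11, 8.33 and 7.67 times as long. With islands within 1000 bp merged, the log2 gap to the shortest day 67 library went from 3.86 to 1.41 for the region on chromosome 1 and from 3.46 to 0.63 for the one on chromosome 5, and that of the 3 others stayed as it was. By the edgeR test given further on, the reads of all 5 were also lower in P32, with log2 differences of -1.92 to -3.95. A shorter island by itself lowers the count. The call on Z depended on the island lists, since with equal numbers of islands per library P32 was level with the shortest day 67 library.

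The opposite case was rarer and smaller. On chromosome 14 at 8820401 to 8827800 P32 covered 7.4 kb, Tutored 3.0 and 1.8 kb and Isolate 2.2 and 1.6 kb. P32 filled that whole region, which also carried H3K27me3 and H3K9me3 in P32, H3K27me3 in 3 day 67 libraries and H3K9me3 in none of them. On chromosome 18 at 4533001 to 4537800 P32 covered 4.6 kb and the day 67 libraries 0.6 to 1.4 kb. The 3 remaining regions were 1.0 to 1.8 kb long, on chromosome 5 at 39076001, Z at 60279401 and chromosome 4 at 5223001, and P32 covered 2.25 to 2.5 times the longest day 67 length. The one on Z turned when islands within 1000 bp were merged, where P32 lay below the longest day 67 library. In reads, only those on chromosome 14 and Z were higher in P32 by edgeR (adjusted p = 0.0186 and 0.0389), and the 3 others did not pass.

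Read levels of P32 differed from the day 67 libraries far more than those libraries differed within a replicate number. P32 lay above the day 67 range in 4877 of 13513 regions (36.1%) and below it in 4461 (33.0%), together 69.1%. The same measure gave 38.3% for Tutored replicate 1, 33.9% for Tutored replicate 2, 24.5% for Isolate replicate 1 and 34.2% for Isolate replicate 2, each of which had its same-numbered partner in the range. Across regions, log2 CPM of P32 correlated at r = 0.80 to 0.86 with the 4 day 67 libraries. The day 67 pairs gave 0.89 to 0.91 between replicate numbers and 0.98 to 0.99 within one (n = 13513 regions, which are not independent and share library depth). P32 was over 2-fold away from single day 67 libraries in 17.9% to 24.4% of regions, against 9.29% to 12.2% between replicate numbers and 0.733% to 1.27% within one.

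Large differences were mostly lower values in P32. P32 was more than 2-fold below the lowest day 67 library in 929 regions and more than 2-fold above the highest in 321. Beyond 4-fold the counts were 195 below and 1 above. Of the regions below the range in reads, 61.0% were also shorter than all 4 day 67 islands, and of those above it 18.5%. Read counts include only reads inside islands, so a shorter island by itself lowers the count. Only regions with an island in all 5 libraries were counted. A region low in P32 thus needed an island in 1 weak library, and a region high in P32 needed islands in 4. The counts above were not repeated without this requirement. The edgeR test given further on was also run with a looser one. An island in any 2 of the 5 libraries then sufficed, and a library lacking one was given a count of 0. Of 18203 regions, 1650 were then lower in P32 and 685 higher, against 1153 and 757 of 13513. The balance of the edgeR calls thus moved further towards lower values in P32.

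In edgeR's quasi-likelihood test over the 13513 regions, 1153 were lower in P32 (8.53%) and 757 higher (5.6%) at a Benjamini-Hochberg adjusted p of 0.05. Its spread comes from the 4 day 67 libraries, taken as separate although replicate numbers pair them, and is assumed to hold for P32. A call thus says that P32 lay beyond that spread and not that birds of the 2 ages differ. The spread includes the difference between replicate numbers. Its measure in edgeR, the common dispersion, was 0.058, and 0.0069 with the replicate number as a block. In the following, higher and lower regions are the sets of these calls. DESeq2 called 1754 lower and 1045 higher, with every region edgeR called lower among them. With Tutored and Isolate as separate groups edgeR called 0 in either direction, although 3121 regions had an unadjusted p under 0.05. With the replicate number as a block and P32 at its midpoint it called 3636 lower and 4123 higher. Without Tutored replicate 1, Tutored replicate 2, Isolate replicate 1 or Isolate replicate 2 it called 843, 606, 589 or 543 lower and 418, 168, 136 or 134 higher.

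**Figure D3:**
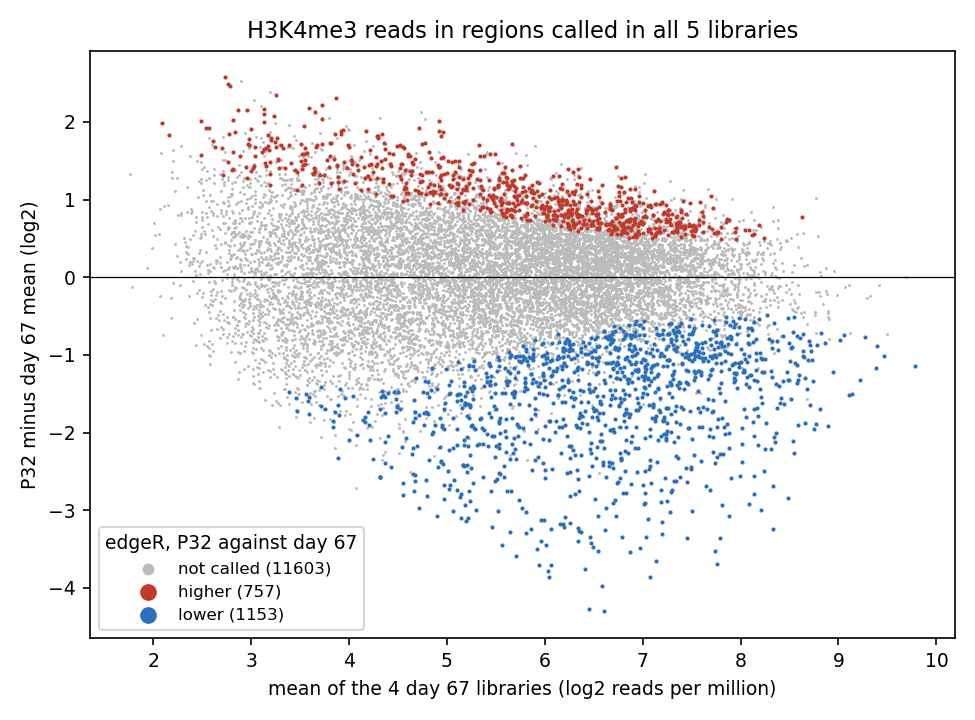
Each point is 1 of 13513 regions called in all 5 libraries. The horizontal axis is the mean log2 CPM of the 4 day 67 libraries and the vertical axis is P32 minus that mean; red points were higher (757) and blue points lower (1153) in P32 by edgeR. The lower points reach beyond -4 and the higher points stay under 3.

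Regions lower in P32 were long and, by the reads that also chose them, well marked at day 67. Their median length was 5.4 kb, against 3.2 kb over all regions tested, and 244 of them (21.2%) were at least 8 kb, against 7.00% of all. Length is bound to the choice as well, since reads were counted inside islands only and long day 67 islands lengthen a merged region. P32 was the shortest in 87.9% of the lower regions. The median level was 35.9 CPM in P32 and 98.0 to 115 at day 67. P32 covered a median of 2.6 kb of them and the day 67 libraries 4.4 to 4.8 kb. CPM per covered kb were 14.0 in P32 and 21.02 to 26.6 at day 67, so both extent and density were low. With the covered length as an offset edgeR called 137 lower and 337 higher, and the median log2 difference over all regions moved from 0.01 to 0.17. Of the 1910 regions called in either direction, 122 changed sign under that offset.

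Regions higher in P32 were shorter and, by the reads that also chose them, denser in P32. Their median length was 2.6 kb, with a median of 118 CPM in P32 and 55.4 to 59.5 at day 67. The median cover was 2.0 kb in P32 and 1.6 to 2.2 kb at day 67, so P32 lay inside the day 67 spread for length. Per covered kb, P32 had 59.2 CPM and the day 67 libraries 24.8 to 33.9.

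The 5 regions furthest below the day 67 range, among those with at least 50 reads on average, held 4.34 to 9.28 CPM in P32, with the next P32 region 0.4 to 51.8 kb away. On chromosome 1A at 13781401 to 13788200 P32 had 4.54 CPM, Tutored 71.8 and 103 and Isolate 78.4 and 101. The nearest day 67 library was 15.8-fold higher, and edgeR gave a log2 difference of -4.29 (SE 0.36). P32 covered 0.8 kb of the 6.8 kb region, where Pol II was called in all 5 libraries.

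A second region of that chromosome, at 26631801 to 26638600, had 4.94 in P32, 63.8 and 153 in Tutored and 65.0 and 140 in Isolate. Replicate 2 stood above replicate 1 there, with P32 12.9-fold below the lowest. On chromosome 2 at 28957601 to 28967400 the levels were 9.28 in P32, 103 and 175 in Tutored and 116 and 158 in Isolate. This region is 9.8 kb long and had Pol II in all 5 libraries.

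On chromosome 7 at 13435001 to 13442800 P32 had 6.32, Tutored 68.4 and 97.5 and Isolate 82.5 and 95.9. On chromosome 5 at 49625001 to 49629200 P32 had 4.34, Tutored 48.7 and 48.1 and Isolate 45.8 and 46.4. The latter had the most even day 67 levels of the 5 (47.3 ± 1.36, SD, n = 4), and neither had an island of another mark in any library. With islands within 1000 bp merged, the log2 gap to the lowest day 67 library went from 3.98 to 2.60 for the first region, from 3.48 to 1.38 for the one on chromosome 2 and from 3.398 to 1.21 for the one on chromosome 5. The gap stayed at 3.69 for the second on chromosome 1A, and on chromosome 7 it was 3.44 before and 3.73 after. These 5 were picked on the same reads that edgeR tested, so its result for them is no separate support. None of them carried H3K27me3 or H3K9me3 at either age. Of all tested regions, 69.8% had no H3K27me3 and 68.6% no H3K9me3 in any library.

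The 5 regions furthest above the day 67 range were weakly marked at day 67, which a choice by the gap to the highest day 67 level favours. On chromosome 27 at 2214401 to 2216200 P32 had 38.1 CPM, Tutored 7.47 and 5.47 and Isolate 8.39 and 6.29. P32 was 4.54-fold above the highest day 67 library, with a log2 difference of 2.47 by edgeR (SE 0.32) on the same reads that picked the region. Its islands were not longer, covering 1.0 kb in P32 and 0.6 to 1.6 kb at day 67.

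On chromosome 1 at 116482401 to 116483400 P32 had 38.1, Tutored 9.63 and 7.67 and Isolate 5.99 and 5.09. On chromosome 12 at 7280401 to 7282400 P32 had 54.5, Tutored 13.01 and 10.5 and Isolate 11.3 and 13.8. P32 stood apart in both, 3.95-fold above the nearest library. The 2 others lay on chromosome 15 at 12997601 to 13000000 (48.4 in P32, 8.25 to 12.7 at day 67) and chromosome 3 at 57946201 to 57946800 (39.7 and 4.32 to 10.6). Except for the one on chromosome 1, which had no other mark, these regions carried H3K27me3 and H3K9me3 in P32, while H3K9me3 was called in no day 67 library. H3K27me3 was called in all 4 day 67 libraries on chromosomes 27, 15 and 3 and in 1 of them on chromosome 12. Merging within 1000 bp took the log2 gap from 1.98 to 1.41 on chromosome 1 and from 1.90 to 1.35 on chromosome 3, and moved the 3 others by under 0.01.

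**Figure D4:**
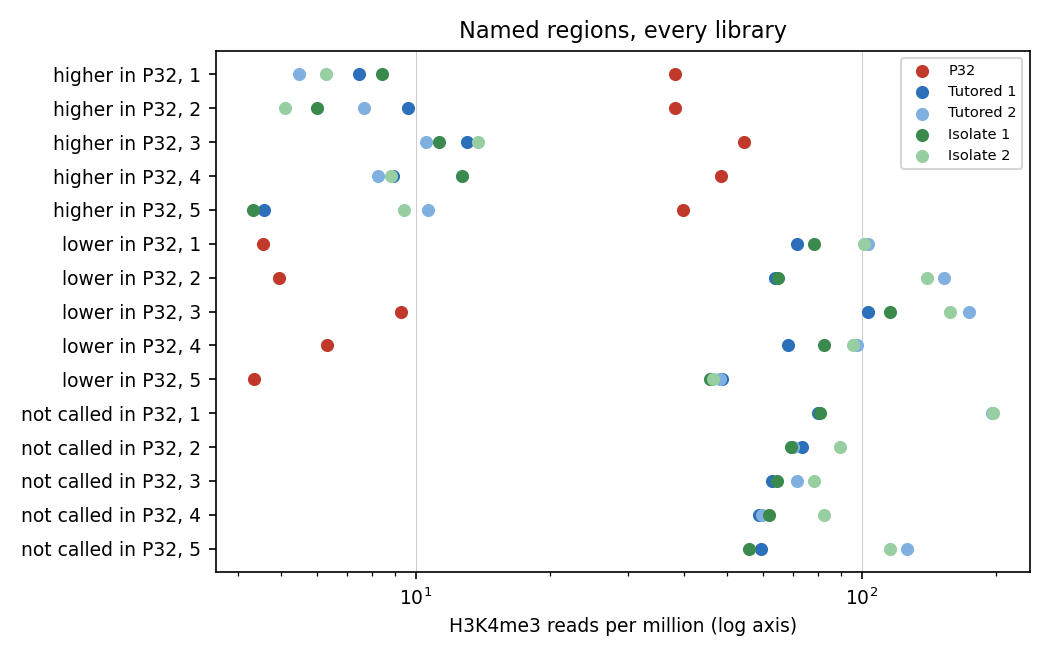
Points give H3K4me3 CPM (log axis) in every library for the 5 regions furthest above the day 67 range, the 5 furthest below it and the 5 not called in P32, in the order of the text. P32 (red) lies at 38.1 to 54.5 in the first set and 4.34 to 9.28 in the second, and has no island in the third.

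The 10 regions with the smallest p were all lower in P32. They shared an adjusted p of 0.0124 by edgeR, and their log2 differences ranged from -1.90 to -3.49. The first, on chromosome 3 at 7891201 to 7898000, had 11.3 CPM in P32 and 126 ± 8.48 at day 67 (SD, n = 4). The least changed, on chromosome 1A at 6415401 to 6421400, had 45.0 in P32 and 167 ± 8.50 at day 67. None of the 10 carried H3K27me3 or H3K9me3 in any library, and 7 had Pol II in P32. With Tutored and Isolate as separate groups none of the 10 passed the threshold, with their log2 differences at -1.90 to -3.49. With covered length as an offset the differences shrank to between -1.03 and -1.98, for example from -3.49 to -1.31 in the first, and the region on chromosome 4 at 63104201 no longer passed.

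Pol II of P32 was called more often at regions where its H3K4me3 was lower. P32 Pol II was called at 53.3% of the regions lower in P32 (614 of 1153), at 24.4% of those higher and at 26.4% of all tested. Day 67 Pol II was called at 24.98% to 70.9% of the lower regions and at 24.1% to 67.7% of all. Long regions carry Pol II more often, so the shares were also taken within a length class. Among regions of 3 to 8 kb, P32 Pol II lay at 377 of 754 lower regions and at 32.7% of the 5316 that were not called. All 4 day 67 Pol II lists went the other way, with 63.1%, 20.03%, 69.2% and 36.7% of lower regions (Tutored replicates 1 and 2, Isolate replicates 1 and 2) and 73.7%, 31.2%, 82.9% and 65.7% of those not called. The 333 higher regions of this length had Pol II more often than those not called at both ages, at 37.8% in P32 and 33.9% to 92.5% at day 67.

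A smaller set had Pol II in P32 and in none of the day 67 libraries. It comprised 86 of the 13513 regions, and H3K4me3 of P32 lay below the day 67 range in 77 of them and above it in 3. Their median level was 22.6 CPM in P32, 63.7 and 71.2 in Tutored and 60.9 and 76.9 in Isolate. By edgeR 49 of the 86 were lower in P32 and 1 was higher, against 8.53% and 5.6% of all tested. Conversely, of the 939 regions with Pol II in all 4 day 67 libraries and not in P32, 63 were higher in P32 (6.71%, close to the 5.6% of all tested) and 27 lower (2.88%). Where only P32 had Pol II, its H3K4me3 was thus mostly low.

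Polycomb-marked regions were more often higher than lower in P32. Of the 2108 regions with H3K27me3 in all 5 libraries, P32 was above the day 67 range in 46.3% and below it in 23.6%. Of the 9436 with H3K27me3 in none, the shares were 32.9% and 36.3%. By edgeR 8.21% of the former were higher and 4.08% lower, and 4.67% and 9.82% of the latter, against 5.6% and 8.53% of all tested. P32 H3K27me3 was called at 39.6% of the regions higher in P32 and at 17.1% of the lower ones, and the day 67 lists at 25.1% to 31.0% and 10.1% to 13.3%. The same order was thus seen with the H3K27me3 of either age. Among regions of 3 to 8 kb, P32 H3K27me3 lay at 34.2% of higher, 30.5% of not called and 15.8% of lower regions. For regions of 1 to 3 kb the shares were 43.8%, 26.0% and 14.9%, so the excess at higher regions was small in the former class.

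H3K9me3 of P32 moved with H3K4me3 of P32. It was called at 64.1% of regions higher in P32, 30.8% of all tested and 10.7% of the lower ones. The day 67 H3K9me3 lists were called at 7.27% to 9.51%, 3.95% to 5.82% and 2.25% to 3.21%. The P32 list was not confined to regions without Pol II. Of the 687 regions of at least 8 kb that edgeR did not call, 68.0% carried P32 H3K9me3 and 67.1% P32 Pol II. Day 67 H3K9me3 lay at 6.70% to 9.46% of them. The 3177 regions with H3K9me3 in P32 and in no day 67 library had H3K4me3 above the day 67 range in 57.5% and below it in 14.1%. In the 9270 without H3K9me3 in any library the shares were 27.9% and 40.3%. These shares rest on scaling to all regions called in all 5 libraries. In the 9351 regions without P32 H3K9me3, scaled by themselves, P32 lay above the range in 3532 and below it in 3004. The order of above and below was thus the other way there. With regions that overlap P32 H3K9me3 left out, and the libraries scaled anew, edgeR called 941 lower and 717 higher of 9351, among them the 272 higher regions that lacked it. Whether the H3K9me3 of P32 takes part in these differences was not tested.

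**Figure D5:**
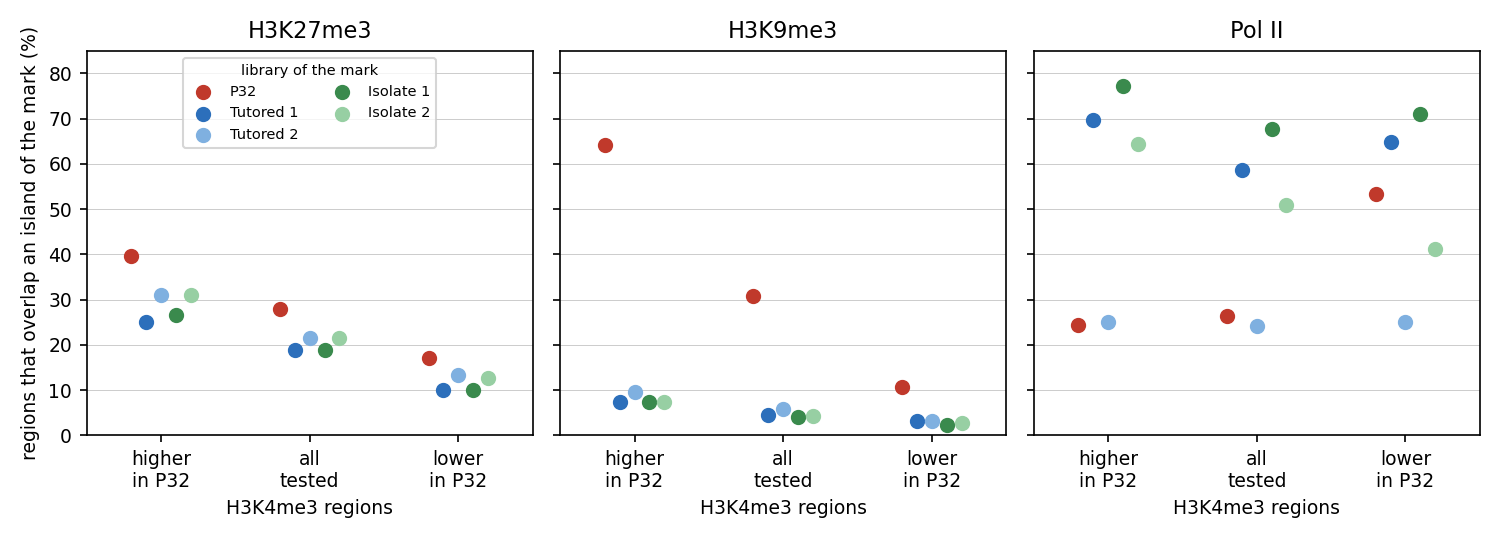
Points give the percentage of H3K4me3 regions that overlap an island of H3K27me3, H3K9me3 or Pol II, for each library of that mark, in regions higher in P32 (757), all tested (13513) and lower in P32 (1153). P32 (red) stands at 64.1%, 30.8% and 10.7% for H3K9me3 and at 24.4%, 26.4% and 53.3% for Pol II.

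In reads, the small chromosomes of the finch, which are dense in genes and rich in GC, leaned towards P32 against replicate 2 but not against replicate 1. P32-only regions made up 6.98% of the merged regions on the 20 chromosomes under 20 Mb and 2.39% on the 6 autosomes of at least 50 Mb. Tutored replicate 1 and Isolate replicate 1 showed the same order for their own regions (3.78% and 1.12%, 2.32% and 0.850%), and the replicate 2 libraries the reverse (1.13% and 2.04%, 2.45% and 4.64%). The median log2 difference of reads was 0.19 on the small chromosomes, -0.03 on the large autosomes and -0.12 on Z. Against replicate 1 alone the small chromosomes stood at 0.02 and the large autosomes at 0.03. Against replicate 2 alone they stood at 0.31 and -0.10. The share of P32 reads on the small chromosomes, 27.8%, was close to replicate 1 (27.7% and 27.3%) and above replicate 2 (22.8% and 22.96%). The lean in reads thus appeared against replicate 2 only.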

How the data were processed

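Libraries were made from sonicated, formaldehyde-fixed tissue, per the labels' protocols. Tools listed without a role in the submitters' processing notes are BWA 0.6.1, MACS and SICER 1.1. The deposited values are whole counts of reads per island, called by the authors in each library separately at a false discovery rate of 1E-5 in windows of 200 bp, joined across gaps of 200 bp (H3K4me3) or 600 bp (other marks), per the names of the deposited lists. Those names also carry a tag, unexplained in the labels, that could stand for scaling of reads. With the build not given in the sources used here, coordinates are those of the lists, 1-based, and gene lists drawn up for this tissue were not used because genes could not be placed. Labels give day 67 and the design text day 65. In replicate 1 the deposited H3K4me3 names carry the letter of the other day 67 group, which leaves the comparison of ages unaltered.

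Groups and replicate numbers came from the titles. Counts in the 13513 regions called in all 5 libraries were tested with edgeR 4.0.16 in R 4.3.3 (quasi-likelihood, robust, TMM factors, 2 ages, Benjamini-Hochberg adjusted p of 0.05) and with DESeq2 1.42.0 as an alternative. Standard errors are the log2 fold over the root of F. CPM (counts scaled to 1000000) use the reads in those regions as library size. Replicate numbers pair the day 67 samples, since the titles of day 67 inputs give a replicate number, the first also naming a pool of Tutored and Isolate. Deviations from group means correlated across regions at r = 0.80. P32 has no replicate number. Alternatives were other scalings, filters, merging and overlap rules, equal numbers of islands (17061), a length offset, a replicate block and each day 67 library left out. Chromosome length was the highest island end in any list.

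Named regions were, 5 for each of 6 rules, the P32-only regions with the most reads, the regions absent from P32 with the highest lowest-library level, and the regions of at least 50 mean reads furthest above or below the day 67 range in cover or level, plus the 10 smallest edgeR p-values. The comparison, lists and rules were chosen with earlier results of these data known.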

Additional observations from a re-analysis of the deposited data

Results flagged for a closer look

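Among 77 sets of 4 day 67 values, for the libraries and the named regions, 5 held a library far from the other 3, where chance alone flags about 1 in 20. Isolate replicate 1 had 12.7 CPM on chromosome 15 at 12997601, against 8.25 to 8.91 in the others, and Isolate replicate 2 had 82.4 on chromosome 1A at 38183401, against 59.0 to 62.1. Covered lengths, which move in steps of 200 bp, stood apart for Isolate replicate 2 on chromosome 1 at 116482401 (0.2 kb against 0.6 kb), Isolate replicate 1 on chromosome 1A at 6415401 (6.0 kb against 5.0 kb) and Tutored replicate 1 on chromosome 2 at 28957601 (8.6 kb against 9.4 kb).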

How the results depend on the processing

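Each count below is set beside the value of the report. With at least 50% of a region required under islands, 8414 regions were left in all 5 libraries, 2070 were in all day 67 libraries and not P32, P32 was longer in 332 and shorter in 2690, and its reads lay above in 3201 and below in 2774. Against replicate 1 alone, 1505 regions were P32-only, 1207 absent from P32 and 9059 shorter. Against replicate 2 alone, 1430 were P32-only, 2326 absent, 4611 longer and 6701 below in reads. Without regions that overlap P32 H3K9me3, 187 were P32-only and P32 was longer in 285. Leaving out 1 day 67 library gave 942 to 1017 P32-only and 793 to 1060 absent regions, 695 to 1228 longer and 4929 to 5448 shorter, and 5070 to 5368 above and 4670 to 5104 below in reads.

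The edgeR counts were the least stable. Higher regions numbered 0 with 3 groups, 4123 with the replicate block, 337 with covered length as offset, 3809 with both, 477 with islands within 1000 bp merged, and 134 to 418 without 1 day 67 library. Lower regions numbered 0 with 3 groups, 3636 with the block, 137 with the offset, 1754 by DESeq2 and 543 to 843 without 1 library. The block kept all 757 higher and 1153 lower regions. The cause of these shifts was not tested. Other settings stayed within 1.5 times the count of the report, which does not mean that the regions were the same. Without regions that overlap P32 H3K9me3, 717 were higher, of which 272 were among the 757 of the report. The other 485 of the 757 overlap that mark and were left out. Of 138 alternative values for the 10 regions with the smallest p, 127 kept direction and call and 11 lost the call, 10 of them with 3 groups, while the length offset shrank the differences to between -1.03 and -1.98. Of 234 for the regions named by range, 232 kept the side, with gaps up to several times smaller when islands within 1000 bp were merged. A region without a value under a setting was not counted there, so these totals cover only the regions that remained. With at least 50% of a region required under islands, only the one on chromosome 3 at 57946201 kept a value. The named regions called only in P32 or absent from it were not followed. The faintest island held 13 reads in P32 and in replicate 1 and 22 or 23 in replicate 2, and what depth does to such calls was not tested.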

Other observations

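Regions lower in P32 had a neighbour of the same kind more often than other regions did, though most had none. Of the 647 regions lower by edgeR that had another tested region within 20 kb, 130 (20.1%) had a neighbour that was also lower, and of the 8744 other regions with a neighbour 7.06% did. For regions higher in P32 the shares were 9.98% and 6.78%. The rest of the 1153 lower regions had no tested region within 20 kb and were left out, and the shares were not matched for region length. The named region on chromosome 1A at 13781401 lay 0.8 kb from the next P32 region.

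Single chromosomes differed within their size class. The median log2 difference of reads between P32 and day 67 was 0.43 on chromosome 28 (196 regions), 0.37 on chromosome 27 (132 regions) and 0.37 on chromosome 25 (56 regions), and -0.03 on chromosome 21 (180 regions), which are all under 20 Mb. P32-only regions made up 13.1% of merged regions on chromosome 28 and 6.33% on chromosome 21. These chromosomes were picked after their values were seen. The medians are against all 4 day 67 libraries and were not split by replicate number. For the chromosomes under 20 Mb together, the difference was 0.31 against replicate 2 and 0.02 against replicate 1.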
